A study of Homo sapiens with 6 samples.

Results

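Aryl hydrocarbon receptor (AHR) signalling was followed through 10 genes in OE33 cells: the receptor *AHR*, its dimerisation partner *ARNT*, the feedback repressors *AHRR* and *TIPARP*, and the targets *CYP1A1*, *CYP1B1*, *NEDD9*, *SCIN*, *ABCG2* and *ALDH3A1*. They were chosen by gene name from the 58735 genes of the count table, with the difference between exposed and control cells already known, so their differences are given as a description without a test. All 10 were found and all 10 passed the filter on low counts, which left 13768 genes. OE33 is an established line from an adenocarcinoma of the human esophagus. Polyadenylated RNA was sequenced from 6 libraries, 3 biological replicates of cells exposed to acidified bile salts (ABS) and 3 of untreated control cells, all grown in RPMI1640 with serum. ABS cells spent 20 min in unsupplemented medium of pH 4.0 with 200 µM bile salts, then were washed and recovered in complete medium for 6 h, and the composition of the bile salts was not given in the sources used here. No library received acid, bile salts or the unsupplemented medium alone, so these parts of the exposure cannot be told apart.

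AHR is a ligand-activated transcription factor of the bHLH-PAS family. Without ligand it rests in the cytosol with the chaperone HSP90 and the co-chaperone PTGES3. With ligand it enters the nucleus, pairs with ARNT and binds response elements that hold the core GCGTG, and the genes it switches on include those of the CYP1 enzymes, which oxidise many of its ligands, and of AHRR and TIPARP, which restrain it. In epithelia of the digestive tract it is best known as a sensor of dietary, microbial and pollutant compounds.

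The sequence around the annotated starts of 8 of the 10 genes was read from RefSeq on GRCh38.p14, from 250 bases before to 50 bases after each start. *CYP1B1* and *ALDH3A1* were not searched here. The sequences below are those of *CYP1A1*, *AHRR* and *TIPARP*, whose counts were higher in every ABS library than in every control library, and of *ARNT*, whose counts were not. Each runs 5′ to 3′ along the gene, and capitals mark GCGTG on that strand or CACGC, its reverse complement.
CYP1A1 (chr15:74725479-74725778, minus strand): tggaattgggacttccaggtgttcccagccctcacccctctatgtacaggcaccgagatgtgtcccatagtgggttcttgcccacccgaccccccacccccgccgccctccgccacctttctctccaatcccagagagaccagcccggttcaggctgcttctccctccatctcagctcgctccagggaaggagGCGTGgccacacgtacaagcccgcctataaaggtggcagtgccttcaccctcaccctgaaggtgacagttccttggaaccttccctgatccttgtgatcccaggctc
AHRR (first start, chr5:321464-321763, plus strand): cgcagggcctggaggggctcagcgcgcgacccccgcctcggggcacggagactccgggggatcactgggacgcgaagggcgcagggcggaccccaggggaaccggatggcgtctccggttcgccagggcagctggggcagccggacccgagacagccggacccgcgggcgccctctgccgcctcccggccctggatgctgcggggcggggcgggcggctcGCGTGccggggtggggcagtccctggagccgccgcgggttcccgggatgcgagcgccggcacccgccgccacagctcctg
TIPARP (first start, chr3:156674340-156674639, plus strand): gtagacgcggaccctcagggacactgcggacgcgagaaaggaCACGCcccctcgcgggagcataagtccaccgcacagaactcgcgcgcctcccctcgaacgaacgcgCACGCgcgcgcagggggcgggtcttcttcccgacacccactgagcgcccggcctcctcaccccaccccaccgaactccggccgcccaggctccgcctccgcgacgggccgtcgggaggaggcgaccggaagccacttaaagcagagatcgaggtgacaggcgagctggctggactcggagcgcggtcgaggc
ARNT (chr1:150876550-150876849, minus strand): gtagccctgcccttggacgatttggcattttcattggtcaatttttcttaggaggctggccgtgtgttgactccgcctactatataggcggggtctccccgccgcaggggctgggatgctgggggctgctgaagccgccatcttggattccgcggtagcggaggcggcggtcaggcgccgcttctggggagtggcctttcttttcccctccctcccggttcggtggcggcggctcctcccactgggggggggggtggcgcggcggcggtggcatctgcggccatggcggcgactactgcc
The *CYP1A1* window held 1 match, beginning 57 bases before the start. The first *AHRR* window held 1, beginning 30 bases before the start. This was the only match among the members that also had the longer form TNGCGTG, of which GCGTG is the last part. However, 0 of the 50 bases after this first *AHRR* start lay in a GENCODE transcript of the gene. For the second *AHRR* start all 50 did, and its window held 2 matches of GCGTG and 0 of TNGCGTG. The first *TIPARP* window held 2, beginning 208 and 142 bases before the start, both on the opposite strand, and the *ARNT* window held 0. Over all their starts, 6 of the 8 genes had the 5-base core, all but *ARNT* and *NEDD9*, and 1 of 8 had TNGCGTG. The core did not follow the difference gene by gene. *AHR*, whose level was lower in every ABS library, had 1 match, and *SCIN*, whose groups overlapped, had 2. The windows of *TIPARP* starts 2 and 3 and of *ABCG2* starts 1 and 3 held 0. Of all 35116 RefSeq windows of this length, 36.5% held GCGTG on either strand and 5.51% held TNGCGTG, and of 27305 genes 40.6% and 6.69% held them at any start. *AHRR*, *TIPARP*, *NEDD9* and *ABCG2* have several annotated starts and so several chances of a match. A match of letters is not a bound site, and these data do not say which start was used.

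**Figure D1:**
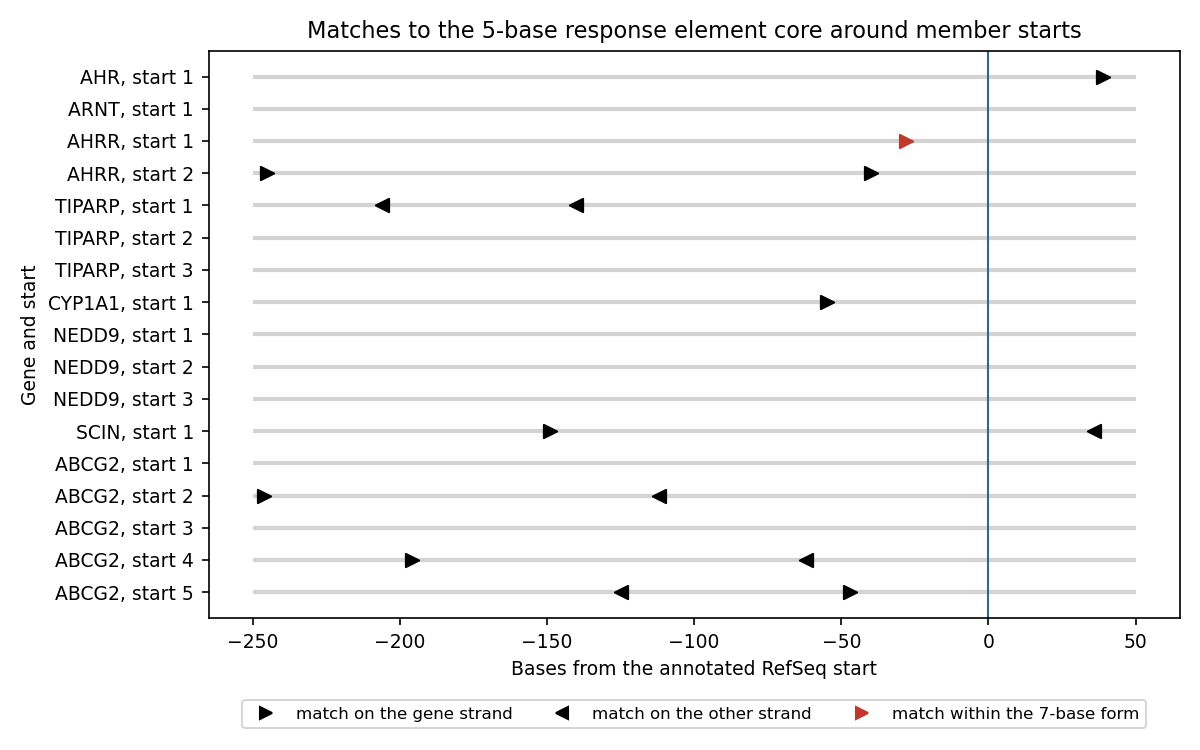
Positions of GCGTG on either strand in the window of each annotated RefSeq start of 8 members, in bases from the start, with the direction of each triangle giving the strand. The 3 *ABCG2* windows with matches overlap each other, and *ARNT* and *NEDD9* have none.

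Library totals lay between 23414287 and 25235686 counts after ABS and between 22145676 and 23683950 in controls. Levels are given as CPM, the raw count brought to a common library size with TMM normalisation factors. The 6 epithelial markers (*EPCAM*, *CDH1*, *KRT8*, *KRT18*, *KRT19* and *CLDN4*) summed to 19158 to 20426 CPM after ABS and 18341 to 20986 CPM in controls. Markers of fibroblasts summed to at most 4.02 CPM and of endothelium to at most 0.275 CPM. Immune markers summed to 5.60 to 6.37 CPM after ABS and 5.38 to 7.24 CPM in controls, from *CD14* and *LYZ*, while *PTPRC* and *CD3E* had 0 counts in all libraries. Replicate 3 differed from replicates 1 and 2 in both groups. A chi-square statistic per degree of freedom on raw counts was 4.77 between ABS replicates 1 and 2, 4.77 between control replicates 1 and 2, 6.74 between the replicate 3 libraries of the 2 groups, and 13.6 to 18.9 for all other pairs. Each member's difference is therefore also given within replicates 1 and 2 and for the replicate 3 pair, which has 1 library per group.

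Of the 10 members, 3 passed the threshold of the edgeR quasi-likelihood test over all tested genes (Benjamini-Hochberg adjusted p under 0.05), *CYP1A1*, *CYP1B1* and *TIPARP*, all higher after ABS. Over all genes 0.436% passed, 0.37% higher and 0.0654% lower. The members were picked with this contrast in view, so nothing is read from that count. The groups did not overlap for 6 members: *CYP1A1*, *CYP1B1*, *TIPARP*, *AHRR* and *ABCG2* were higher in every ABS library, as were 7.57% of all tested genes, and *AHR* was lower in every ABS library, as were 6.95%. The other 4, *ARNT*, *NEDD9*, *SCIN* and *ALDH3A1*, overlapped between groups. In bulk RNA, fewer or more cells that express a gene and a different amount of its RNA per cell cannot be told apart. The median log2 fold change was 0.32 over the members and -0.00 over all tested genes. In the order of differences from highest to lowest, *CYP1A1* was rank 3, *CYP1B1* rank 6, *AHRR* rank 70 and *TIPARP* rank 139 of 13768.

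**Figure D2:**
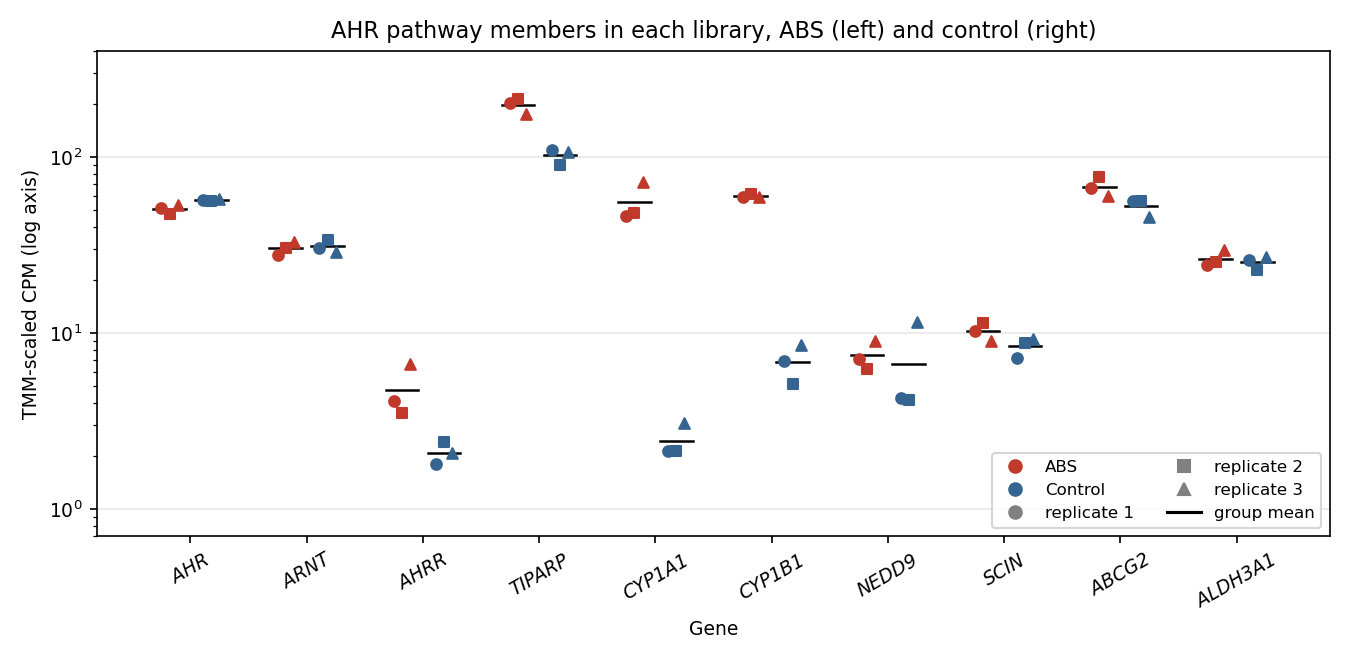
TMM-scaled CPM of the 10 members on a log axis, 1 point per library, with ABS left of control for each gene, a symbol for each replicate and a bar at the group mean. *CYP1A1* and *CYP1B1* separate most, while *ARNT* and *ALDH3A1* lie at the same height in both groups.

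The RNA of the receptor was slightly lower in the ABS libraries. *AHR* (ENSG00000106546, chromosome 7, 16916359 to 17346152, plus strand) had 51.2, 47.6 and 53.3 CPM in ABS libraries 1, 2 and 3 and 56.7, 56.1 and 57.2 CPM in control libraries 1, 2 and 3. The coefficient of variation was 1.04% over the 3 control values and 5.75% over the 3 ABS values. With 3 libraries per group it is a rough measure of spread. Each ABS value was below every control value. The log2 fold change was -0.16 ± 0.08 (standard error, SE), which is 10.5% less, and did not pass the threshold. It was -0.19 within replicates 1 and 2 and -0.10 in the replicate 3 pair. *AHR* shares 29.4% of its exon bases with the same-strand gene *AC019117.2*, which had 0 counts in every library. Levels of *AHR* per kilobase below use its full length with these bases. They would be too low if reads there were left uncounted, which was not tested.

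*ARNT* (ENSG00000143437, chromosome 1, 150809705 to 150876768, minus strand), the partner that AHR needs to bind DNA, was at 27.6, 30.2 and 33.0 CPM after ABS and at 30.5, 33.7 and 28.7 CPM in controls. The values of both groups were interleaved. The log2 fold change was -0.03 ± 0.10, with -0.15 within replicates 1 and 2 and 0.20 in the replicate 3 pair.

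RNA of both feedback repressors was more abundant in every ABS library. *TIPARP* (ENSG00000163659, chromosome 3, 156673235 to 156706770, plus strand) encodes a mono-ADP-ribosyltransferase that modifies AHR and limits its activity. It had 202, 214 and 175 CPM after ABS and 109, 90.1 and 106 CPM in controls, and the lowest ABS library, replicate 3, was still above every control library. The 1.94-fold difference was a log2 fold change of 0.95 ± 0.10, with 1.06 within replicates 1 and 2 and 0.72 in the replicate 3 pair.

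*AHRR* (ENSG00000063438, chromosome 5, 304176 to 438291, plus strand) encodes a repressor that resembles AHR and competes with it for ARNT. It was scarce, with raw counts of 102, 80 and 169 in the ABS libraries and 42, 53 and 50 in the control libraries. These were 4.11, 3.50 and 6.63 CPM after ABS and 1.79, 2.41 and 2.07 CPM in controls. ABS replicate 3 was 1.74 times the mean of the other ABS libraries, which gave the ABS group a coefficient of variation of 35%. The 2.28-fold difference was a log2 fold change of 1.19 ± 0.28 and did not pass the edgeR threshold, with 0.86 within replicates 1 and 2 and 1.64 in the replicate 3 pair. *AHRR* passed in 4 of 15 alternative fits. These were DESeq2, no filter on low counts, the replicate number as a block and replicate 3 as a term of the model. It did not pass with limma-voom, in replicates 1 and 2 only, or in any of the 6 fits that left out 1 library. *AHRR* shares 3.18% of its exon bases with *PDCD6* on the same strand, which had 2653 to 3060 counts after ABS and 2857 to 2968 in controls.

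The ratio of *AHRR* to *AHR*, both as CPM per kilobase of gene length, was 0.0846, 0.0774 and 0.131 in the ABS libraries and 0.0332, 0.0453 and 0.0380 in the control libraries. In each library the *AHRR* RNA level per length was therefore well below that of *AHR*. The lengths cover all exons of a gene and not the transcripts in use, so this is not a ratio of molecules. Protein was not measured.

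The CYP1 enzymes had the 2 largest differences of the members. *CYP1A1* (ENSG00000140465, chromosome 15, 74719542 to 74725610, minus strand) encodes a monooxygenase that oxidises polycyclic aromatic compounds and endogenous AHR ligands. Its raw counts were 1148, 1099 and 1835 in the ABS libraries and 50, 47 and 74 in the control libraries. In CPM it had 46.3, 48.0 and 72.0 after ABS and 2.13, 2.14 and 3.06 in controls. Replicate 3 was the highest library of each group, 1.53 times the mean of the other ABS libraries and 1.44 times that of the other controls. The log2 fold change, 4.50 ± 0.21, was 4.46 within replicates 1 and 2 and 4.52 in the replicate 3 pair.

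*CYP1B1* (ENSG00000138061, chromosome 2, 38066973 to 38109902, minus strand) encodes a related monooxygenase that also hydroxylates estradiol. It had 58.7, 61.8 and 58.9 CPM after ABS, a coefficient of variation of 2.93%, and 6.93, 5.10 and 8.48 CPM in controls, one of 24.8%. The ABS libraries were nearly level while the highest control library, replicate 3, exceeded the lowest. The log2 fold change was 3.12 ± 0.15, with 3.32 within replicates 1 and 2 and 2.78 in the replicate 3 pair.

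Genes that share exon bases with *CYP1B1* on the opposite strand also had more counts after ABS. *CYP1B1-AS1*, which overlaps 11.3% of the *CYP1B1* exon bases, had 45, 26 and 35 counts in ABS libraries and 13, 10 and 6 in control libraries. *RMDN2*, which overlaps 1.6%, had 59, 47 and 51 counts after ABS and 36, 30 and 24 in controls. Neither passed the edgeR threshold, with adjusted p of 0.128 for *CYP1B1-AS1* and 0.488 for *RMDN2*. The strand setting of the counting was not given in the sources used here, so reads of *CYP1B1* and of these genes cannot be told apart where they overlap. Both had far fewer counts than the 1414 to 1500 of *CYP1B1* after ABS and, in controls, than its 112 to 205.

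The balance of both CYP1 genes differed between the groups. The ratio of *CYP1A1* to *CYP1B1* in CPM per kilobase was 1.38, 1.36 and 2.14 in the ABS libraries and 0.537, 0.735 and 0.632 in the control libraries. *CYP1A1* was thus the more abundant per length in all 3 ABS libraries and the less abundant in all 3 controls. *CYP1A2*, the closest relative of *CYP1A1*, had 1 count over the 3 ABS libraries and 0 over the controls, and was named after its values were seen.

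The remaining 4 targets differed little or varied with the replicate. *ABCG2* (ENSG00000118777, chromosome 4, 88090264 to 88231322, minus strand) encodes an efflux pump for drugs and other compounds. It had 66.8, 76.4 and 59.6 CPM after ABS and 56.2, 56.2 and 45.4 CPM in controls, so the lowest ABS library stood just above the highest control. Its log2 fold change of 0.36 ± 0.11, 28.6% more, did not pass the threshold, and was 0.35 within replicates 1 and 2 and 0.39 in the replicate 3 pair.

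*NEDD9* (ENSG00000111859, chromosome 6, 11183298 to 11382348, minus strand) encodes a scaffold protein of integrin signalling and cell migration. It had 7.10, 6.21 and 9.03 CPM after ABS and 4.25, 4.14 and 11.5 CPM in controls. Control replicate 3 was the highest of all 6 libraries and 2.73 times the mean of the other controls. The log2 fold change was 0.17 ± 0.33 over all libraries, 0.67 within replicates 1 and 2 and -0.34 in the replicate 3 pair. Leaving out control replicate 3 gave 0.83, leaving out control replicate 1 or 2 gave -0.07 or -0.08, and leaving out ABS replicate 3 gave 0.01. *NEDD9* passed the threshold in the fit of replicates 1 and 2 only.

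*SCIN* (ENSG00000006747, chromosome 7, 12570577 to 12660179, plus strand) encodes scinderin, a protein that severs actin filaments. It had 10.2, 11.3 and 9.03 CPM after ABS and 7.18, 8.78 and 9.18 CPM in controls, and the lowest ABS library lay below the highest control. The log2 fold change was 0.28 ± 0.16, with 0.43 within replicates 1 and 2 and -0.02 in the replicate 3 pair.

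*ALDH3A1* (ENSG00000108602, chromosome 17, 19737984 to 19748943, minus strand), an aldehyde dehydrogenase and classic member of the AHR gene battery, was at 24.4, 25.2 and 29.4 CPM after ABS and at 25.9, 22.8 and 26.8 CPM in controls. These values were interleaved, with a log2 fold change of 0.07 ± 0.11 that was 0.03 within replicates 1 and 2 and 0.13 in the replicate 3 pair.

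**Figure D3:**
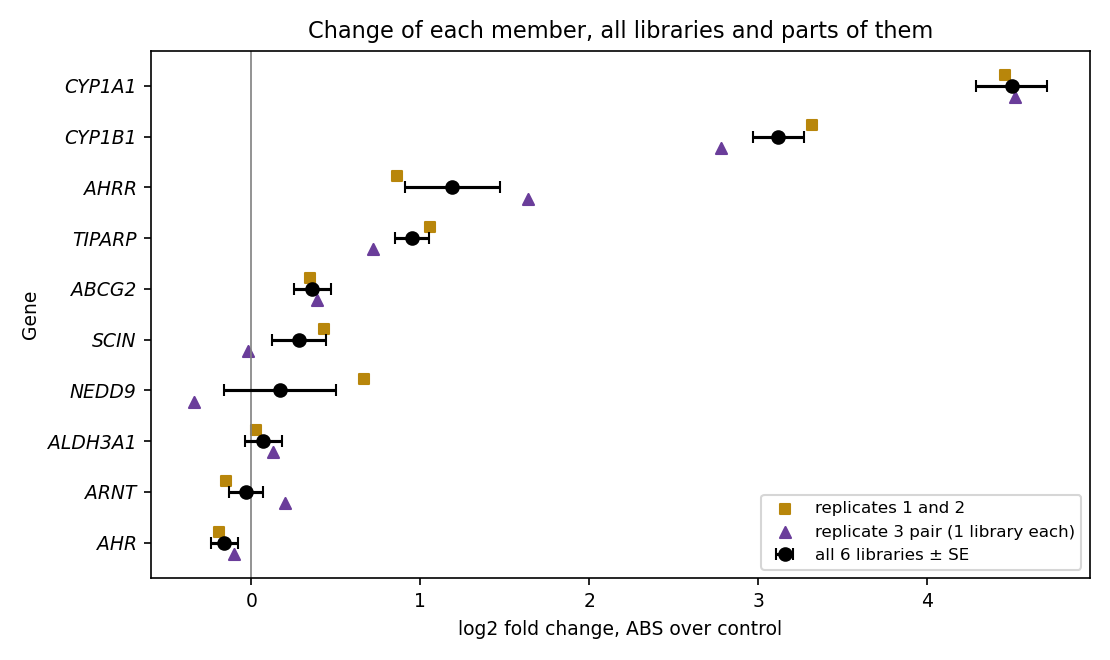
Log2 fold change of each member, ABS over control, over all 6 libraries (circles, bars are ± SE), within replicates 1 and 2 (squares) and in the replicate 3 pair (triangles). All 3 values are positive for *CYP1A1*, *CYP1B1*, *AHRR*, *TIPARP*, *ABCG2* and *ALDH3A1*, and *NEDD9* has 0.67 and -0.34 in the 2 parts.

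Within a group, replicate 3 differed most from the other libraries in *AHRR* after ABS and in *NEDD9* in controls. On the log2 CPM scale replicate 3 minus the mean of replicates 1 and 2 was 0.79 for *AHRR* in ABS libraries, where the 95th percentile of all tested genes was 0.76. It was 1.43 for *NEDD9* in control libraries, where that percentile was 0.70. For *CYP1A1* it was 0.61 in ABS and 0.51 in control libraries, inside that range. These 2 of the 10 genes were the members above the percentile, 1 in each group. Whether culture, handling or sequencing separated the replicate 3 libraries was not tested.

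Per kilobase of gene length the members spanned a wide range of levels. After ABS the order was *TIPARP* (39.0 ± 4.05 CPM per kilobase, SD, n = 3), *CYP1A1* (16.1 ± 4.18), *ABCG2* (13.4 ± 1.67), *CYP1B1* (9.94 ± 0.292), *ALDH3A1* (6.72 ± 0.682), *AHR* (6.27 ± 0.361), *ARNT* (4.64 ± 0.413), *SCIN* (0.874 ± 0.0969), *NEDD9* (0.719 ± 0.139) and *AHRR* (0.618 ± 0.216). The neighbours *CYP1A1* and *ABCG2*, *ALDH3A1* and *AHR*, *SCIN* and *NEDD9*, and *NEDD9* and *AHRR* overlapped in their ranges over 3 libraries. In control cells *TIPARP* (20.1 ± 2.01) was also first, followed by *ABCG2* (10.4 ± 1.24), *AHR* (7.01 ± 0.0731), *ALDH3A1* (6.43 ± 0.54) and *ARNT* (4.75 ± 0.389). The control order went on with *CYP1B1* (1.14 ± 0.282), *SCIN* (0.721 ± 0.091), *CYP1A1* (0.711 ± 0.156), *NEDD9* (0.639 ± 0.405) and *AHRR* (0.272 ± 0.0409), where *SCIN* and *CYP1A1*, and *CYP1A1* and *NEDD9*, overlapped. *CYP1A1* stood at place 2 after ABS and at place 8 in controls, and *CYP1B1* at place 4 and place 6.

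**Figure D4:**
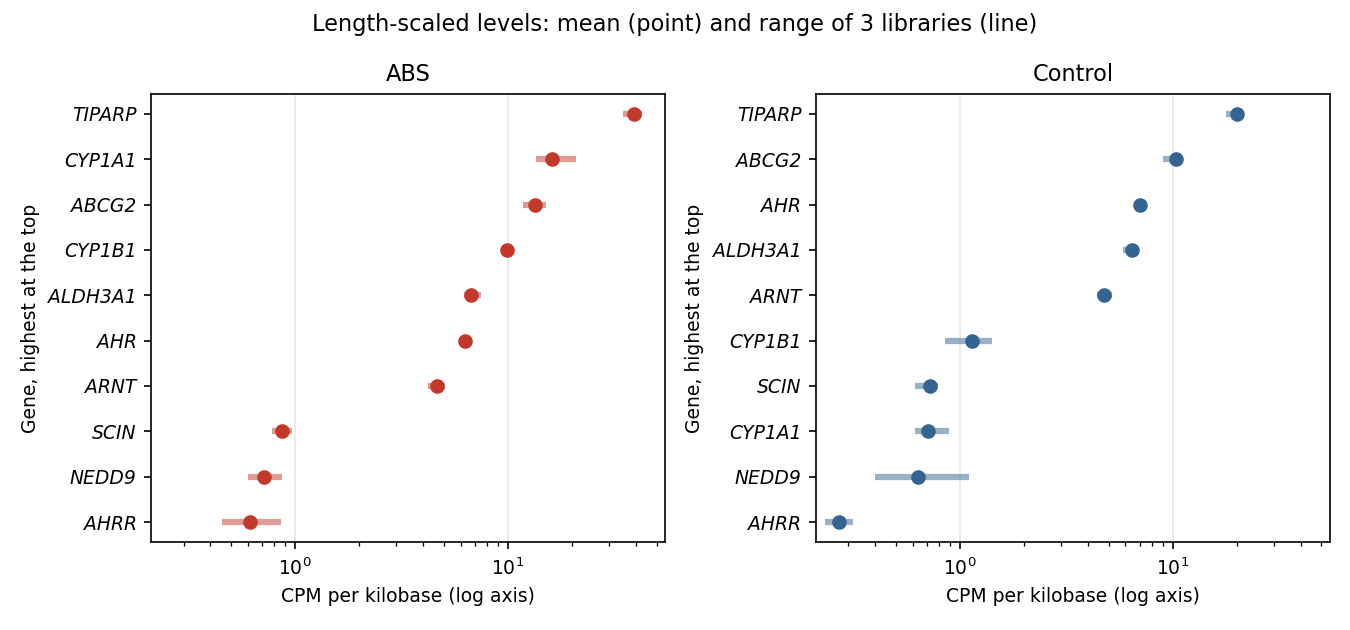
Mean CPM per kilobase (point) and range over 3 libraries (line) of each member on a log axis, ABS on the left and control on the right, ordered by the mean in each group. *TIPARP* is first and *AHRR* last in both groups.

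The rest of the pathway was followed in 7 lists of 94 other genes, of which 73 were tested, and 2 passed the edgeR threshold, both higher after ABS. By unadjusted p under 0.05, 14 of the 73 were higher and 1 lower. Among all tested genes 9.75% had such a p, 5.61% higher and 4.14% lower. The lists were chosen with earlier results of these data known, so nothing is read from these counts. Over all genes 2.08% passed with DESeq2 and 0.45% with limma-voom. *SERPINB2*, a plasminogen activator inhibitor gene reported as an AHR target, had 64.1, 59.8 and 58.6 CPM after ABS and 10.4, 10.6 and 31.6 CPM in controls. Control replicate 3 stood apart from the other controls and below every ABS library. Its log2 fold change was 1.79 ± 0.32 (edgeR adjusted p = 0.0344), 2.56 within replicates 1 and 2 and 0.89 in the replicate 3 pair, and 2.53 without control replicate 3. *NPAS2*, a bHLH-PAS factor of the circadian clock, had 84.1, 87.1 and 96.6 CPM after ABS and 68.6, 68.4 and 60 CPM in controls, and the groups did not overlap. Its log2 fold change was 0.44 ± 0.09 (edgeR adjusted p = 0.049), with 0.32 within replicates 1 and 2 and 0.69 in the replicate 3 pair. Without ABS replicate 1 or 2 or control replicate 1 or 2 neither gene passed, at adjusted p of 0.122 to 0.222 for *SERPINB2* and 0.184 to 0.238 for *NPAS2*, nor did either with library size alone (0.0819 and 0.087).

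Among 25 other reported AHR targets, 19 were tested. *SERPINB2* was the 1 that passed with edgeR, against 4 with DESeq2 and 3 with limma-voom. An unadjusted p under 0.05 was found for 7 of the 19, against 9.75% of all genes. The median log2 fold change of the 19 was 0.21, against -0.00 over all tested genes. *PTGS2*, which encodes cyclooxygenase 2, had 49.1, 48.0 and 31.4 CPM after ABS and 15.4, 13.8 and 27.5 CPM in controls, so that the groups came close only in replicate 3. Its log2 fold change was 1.18 ± 0.23 (edgeR adjusted p = 0.0551). *NFE2L2*, which encodes the antioxidant regulator NRF2, had 158, 169 and 164 CPM after ABS and 114, 100 and 134 CPM in controls, a log2 fold change of 0.49 ± 0.10 (adjusted p = 0.0534). *ALDH1A3*, a retinal dehydrogenase gene, had one of 0.29 ± 0.07 (adjusted p = 0.093), with 1022 ± 45.3 CPM after ABS and 838 ± 14.1 CPM in controls (SD, n = 3 each). Of 15 alternatives *NFE2L2* passed in 8 and *PTGS2* and *ALDH1A3* in 7 each, with the replicate block and without ABS or control replicate 3 among them, and none of these genes passed without any 1 of the other 4 libraries. *GSTA1*, *GSTA2* and *FGF21* had 0 counts in every library.

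Of the cytosolic complex, 0 of 5 genes passed with edgeR, DESeq2 or limma-voom, and 2 had an unadjusted p under 0.05, against 9.75% of all genes. The kinase gene *SRC* had 80.5, 78.3 and 94.0 CPM after ABS and 111, 110 and 97.2 CPM in controls, lower in every ABS library, with a log2 fold change of -0.33 ± 0.09 (edgeR adjusted p = 0.15). The chaperone genes *HSP90AA1* and *HSP90AB1* had 0.17 ± 0.07 (adjusted p = 0.409) and 0.08 ± 0.07 (0.774). *SRC* passed in 6 of 15 alternatives, among them the replicate block (adjusted p = 0.0479) and the fits without ABS replicate 3 (0.0286) or control replicate 3 (0.0253), and had 0.555 to 0.618 without any 1 of the other 4 libraries.

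Among 8 tested bHLH-PAS factors, *NPAS2* was the 1 that passed with edgeR, against 2 with DESeq2 and 1 with limma-voom. An unadjusted p under 0.05 was found for 2 of the 8, against 9.75% of all genes. *SIM2*, which encodes a factor that also pairs with ARNT, had 31.6, 29.8 and 39.4 CPM after ABS and 21.0, 16.2 and 27.5 CPM in controls, a log2 fold change of 0.64 ± 0.17 (edgeR adjusted p = 0.14). It passed in 6 of 15 alternatives, among them DESeq2 (adjusted p = 0.0133), the replicate block (0.00185) and the fit without control replicate 3 (0.00538), and the adjusted p ran from 1.64e-05 to 0.572 over all 15. The clock genes *ARNTL2* (0.16 ± 0.08, adjusted p = 0.576) and *CLOCK* (0.17 ± 0.09, 0.609) overlapped between groups. Of 10 coactivator genes, 0 passed with edgeR, DESeq2 or limma-voom and 1 had an unadjusted p under 0.05, a share near the 9.75% of all genes. The smallest p in that list belonged to *CCNT1*, a cyclin of the elongation factor P-TEFb (0.24 ± 0.10, adjusted p = 0.431), followed by *MED1* of the Mediator complex (0.15 ± 0.09, 0.638) and the acetyltransferase gene *CREBBP* (0.16 ± 0.11, 0.681).

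In the supply of ligands from tryptophan, 0 of 9 tested genes passed with edgeR, 1 with DESeq2 and 0 with limma-voom, and 1 had an unadjusted p under 0.05, near the 9.75% of all genes. This was *SLC7A11*, the cystine and glutamate exchanger, with 317, 297 and 208 CPM after ABS and 187, 172 and 169 CPM in controls, a log2 fold change of 0.64 ± 0.13 (edgeR adjusted p = 0.0551). It passed in 7 of 15 alternatives, DESeq2, the replicate block and the fits without ABS or control replicate 3 among them, and had an adjusted p of 0.201 to 0.344 without any 1 of the other 4 libraries. The kynurenine pathway genes *KYNU* (0.22 ± 0.12, adjusted p = 0.626) and *AADAT* (-0.35 ± 0.21, 0.641) overlapped between groups. *IDO1*, *IDO2*, *TDO2* and *KMO*, which encode further enzymes of that pathway, were too scarce to test, and *IDO2* had 0 counts in every library.

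Genes that serve the microsomal enzymes gave 0 of 7 past the threshold with edgeR, DESeq2 or limma-voom and 0 at an unadjusted p under 0.05. Their median log2 fold change was -0.00, and *ALAS1* and *FECH* of heme synthesis had -0.14 ± 0.13 (edgeR adjusted p = 0.789) and 0.10 ± 0.11 (0.843). The epoxide hydrolase gene *EPHX1* had -0.07 ± 0.07 (0.827). Among family relatives of the members, 0 of 17 tested genes passed with edgeR, DESeq2 or limma-voom and 2 had an unadjusted p under 0.05, near the 9.75% of all genes. The PARP genes *PARP14* (0.20 ± 0.08, adjusted p = 0.40), *PARP4* (0.20 ± 0.09, 0.501) and *PARP16* (-0.29 ± 0.18, 0.654) had the smallest p, and *PARP4* passed in 2 of 15 alternatives, without control replicate 3 and in replicates 1 and 2 only.

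**Figure D5:**
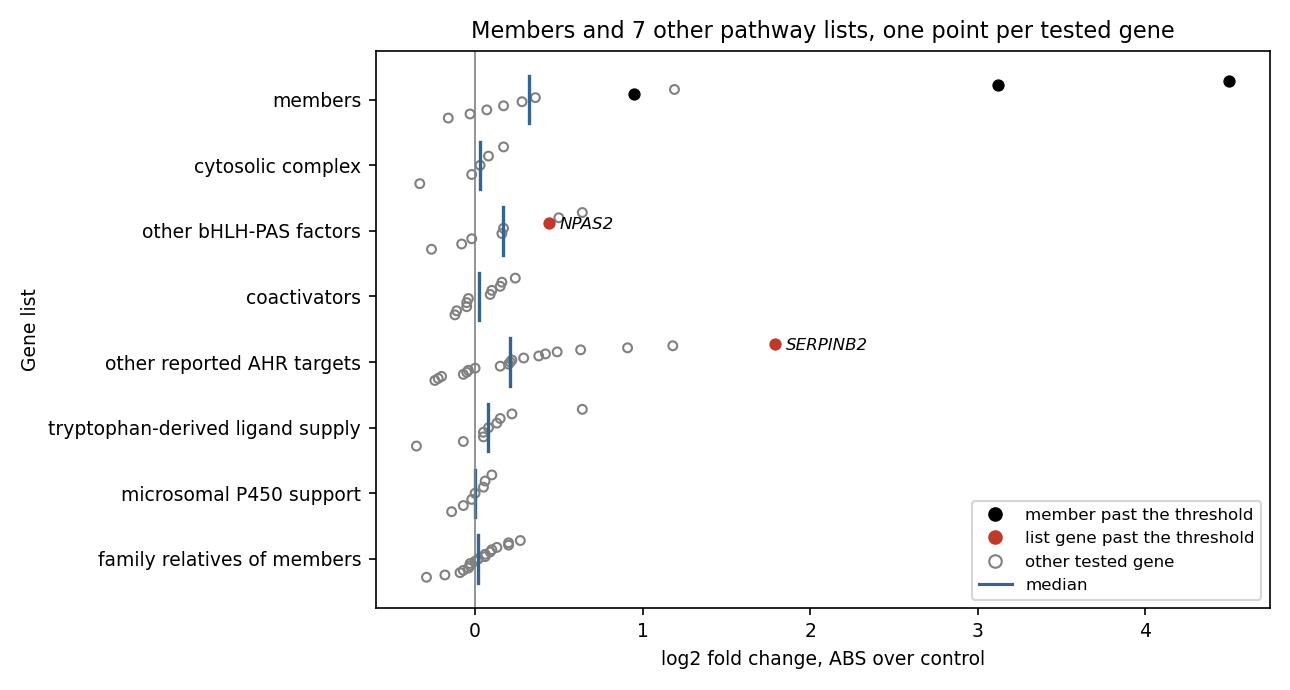
Log2 fold change, ABS over control, of every tested member and of every tested gene of the 7 other lists, 1 point per gene, with the list median as a line. Filled points passed the edgeR threshold, 3 members and the 2 list genes *NPAS2* and *SERPINB2*.

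Genes with the profile most like that of a member were ranked by Pearson r of log2 CPM over the 6 libraries among 9713 protein-coding genes with a mean of at least 5 CPM. All points share the split between 3 ABS and 3 control libraries, so r is given as a description. For *CYP1A1* these were *EXOC3* (r = 0.9948), *ADGRF1* (0.9882), *ZNF765* (0.9840) and *CRISPLD2* (0.9830). *EXOC3* had 108 ± 2.57 CPM after ABS and 88.2 ± 2.05 CPM in controls (SD, n = 3 each). Its log2 fold change of 0.30 ± 0.07 did not pass the threshold (edgeR adjusted p = 0.0996). It lies on chromosome 5, 4866 bases beyond the end of *AHRR*, and a link with that place was not tested. For *CYP1B1* they included *ADGRF1* (0.9971), *IFIT5* (0.9912) and *KATNBL1* (0.9884), and for *TIPARP* *FAM214A* (0.9909), *DNMBP* (0.9898), *CABLES1* (0.9887) and *CEMIP2* (0.9886). *ADGRF1*, an adhesion G protein-coupled receptor gene on both CYP1 lists, had 282 ± 1.41 CPM after ABS and 198 ± 7.54 CPM in controls (SD, n = 3 each), a log2 fold change of 0.51 against 4.50 for *CYP1A1*. For *AHR* they were *EPB41L1* (0.9897), *WDR12* (0.9882), *TRPS1* (0.9882) and *ZNF609* (0.9822), with log2 fold changes of -0.08, -0.13, -0.63 and -0.31.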

How the data were processed

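Polyadenylated RNA of 3 ABS and 3 control libraries of OE33 cells was analysed from 1 deposited table of raw counts per gene, with 1 column per library. Per the submitters' processing notes, HISAT2 2.0.5, featureCounts 1.5.0-p3 and GRCh38 were used. The release of the annotation, whether counting used strand, and how reads with several positions were counted are not given in the sources used here. Gene lengths in bases are the authors' deposited values. They equal the exon length in GENCODE 29 for *AHR*, *AHRR*, *TIPARP*, *CYP1B1*, *NEDD9*, *SCIN* and *ALDH3A1*, the members that share exon bases with another gene. Genes were kept by filterByExpr (minimum count 10, minimum total 15) and scaled by TMM. An edgeR 4.0.16 quasi-likelihood F-test (R 4.3.3) was run on the 6 libraries with a single factor, ABS or control, and p-values were adjusted over 13768 genes at 0.05. The SE is the log2 fold change divided by the square root of F. DESeq2 1.42.0, limma 3.58.1, other filters and scalings, left-out libraries, a replicate block, a replicate 3 term and replicates 1 and 2 alone were the alternatives. Log2 CPM used a prior count of 2. CPM values carry counting error too, and the reads had no molecular identifiers.

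The members, the 7 lists and the tests were chosen with earlier results of these data known. The text names the 10 members, every other list gene past the threshold, up to 3 further genes per list with the smallest p, and 4 genes most like each of *CYP1A1*, *CYP1B1*, *TIPARP* and *AHR*. A gene among those most like *CYP1B1* is not reported here. Genes were otherwise named after their values were seen. Promoter windows came from RefSeq by symbol, with chromosome 8 left out and 8 of 10 members matched, and overlapping exons from GENCODE 29.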

Additional observations from a re-analysis of the deposited data

How the results depend on the processing

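The sign of the log2 fold change of *CYP1A1* (4.27 to 4.70), *CYP1B1* (2.95 to 3.32), *TIPARP* (0.87 to 1.06), *AHRR* (0.86 to 1.36), *ABCG2* (0.27 to 0.45), *SCIN* (0.18 to 0.43) and *AHR* (-0.20 to -0.12) was the same in the 15 alternatives, while *NEDD9* (-0.08 to 0.83), *ARNT* (-0.15 to 0.03) and *ALDH3A1* (-0.02 to 0.12) changed sign in some. *CYP1A1*, *CYP1B1* and *TIPARP* passed the threshold in all 15. The count of members past it was 3, and 5 without a filter, with the replicate block, with the replicate 3 term and in replicates 1 and 2 only. It was 3 to 3 with single libraries left out. *AHRR* and *ABCG2* were added in the first 3 of these fits, and *NEDD9* and *ABCG2* in replicates 1 and 2. *AHRR* was added with DESeq2, which gave 4. In each fit that added members the count over all genes rose too, with DESeq2 from 0.436% to 2.08% of tested genes. Nothing is therefore read from the added members. The 60 genes past the threshold became 35 with library size alone, 264 with DESeq2, 409 without a filter, 350 with the replicate block, 465 with the replicate 3 term and 1813 in replicates 1 and 2, and 12 to 438 with single libraries left out. The 2 genes of the other lists became 0 with library size alone, 4 with limma-voom, 7 with DESeq2, 9 with the replicate block, 9 without a filter and 9 with the replicate 3 term, 19 in replicates 1 and 2, and 0 to 10 with single libraries left out. The cause was not tested. Deviations of same-numbered libraries from their group means correlated at 0.043, 0.033 and 0.167 for replicates 1, 2 and 3. ABS replicate 2 correlated best with control replicate 1 (0.093), so the numbers were not taken as pairs. The value for replicate 3 was the highest of any ABS library with any control library, and the main fit had no term for replicate 3. With TNGCGTG in place of GCGTG, 1 member in place of 6 had a match. At these depths a count of 3 in a library corresponds to 0.118 to 0.137 CPM, so genes such as *CYP1A2* could not be compared.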
